A study of Mus musculus with 18 samples.

Results

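The genes described here are the chemokines, the interleukins and the receptors of both, in duodenal epithelium of WT and Mtgr1-/- mice. Members were all rows whose symbol begins with Ccl, Cxcl, Ccr, Cxcr or Il followed by a digit, leaving out Ccl6, Ccl9, Il1rn, Il2rb and Il18. This gave 105 of the 18838 genes listed at any time: 16 CC ligands, 11 CXC ligands, 15 chemokine receptors, 26 rows named as interleukins and 37 interleukin receptors or binding proteins. The interleukin rows include Il4i1, which encodes an amino acid oxidase, and Il1bos, a transcript antisense to Il1b. Crypt isolates held 95 members, day 1 and day 3 enteroids 88 each, and 79 members were listed at all 3 times.

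Crypts were isolated from the duodenum of 3 WT (Mtgr1+/+) and 3 Mtgr1-/- young adult littermate mice of both sexes. RNA was taken from crypt isolates, from enteroids after 24 h (day 1) and from enteroids after 72 h (day 3), so each mouse gave 3 of the 18 libraries. Enteroids of both genotypes grew in Matrigel with EGF, Noggin and R-spondin. MTGR1, encoded by Cbfa2t2, is a transcriptional corepressor of the MTG family, and the deletion was carried by every cell of the mouse. Reads on genes ranged from 22035316 to 29661084 per library. Cbfa2t2 itself was not lower in libraries labelled Mtgr1-/-: the log2 difference was -0.05 in crypts (adjusted p = 0.917), 0.37 at day 1 (adjusted p = 0.0557) and 0.06 at day 3 (limma, adjusted p = 0.686). Gene totals do not show which exons a transcript holds, so this neither checks nor contradicts the labels.

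Chemokines are small secreted proteins that draw leukocytes along a gradient through G protein-coupled receptors, while interleukins signal mostly through paired receptor chains to JAK and STAT proteins, or, for the IL-1 and IL-17 families, through adaptors to NF-kB. The gut epithelium is a source of several of these ligands, such as CCL25, CCL28, CXCL16, IL-15 and IL-33, and carries receptors through which leukocyte cytokines such as IL-22, IL-13 and IL-17 act on it. Many other members are products of lymphocytes and myeloid cells.

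Values are normalized counts, that is reads divided by the size factor of the library. Genes with a mean of at least 10 in the table of a time point were tested with limma on log2(normalized count + 1), Mtgr1-/- minus WT, 3 libraries against 3, with Benjamini-Hochberg adjustment over all genes tested and a threshold of 0.05. All adjusted p-values below are from limma unless another tool is named. Of the members, 54 passed the minimum in crypts, 44 at day 1 and 33 at day 3, 28 passed at all times and 44 at none. A gene can pass through the genotype where it is high, so counts over the members tested are not evidence about the members that were not. In bulk samples, fewer cells of a type and less RNA per cell cannot be told apart.

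Some libraries stood apart in leukocyte genes. In crypts, 14 T cell and intraepithelial lymphocyte markers, of which 12 were listed, summed to 1155 CPM in WT mouse 3, against 137 and 116 CPM in the other WT mice and 34.4 to 127 CPM in the Mtgr1-/- mice. The 8 myeloid markers summed to 165 CPM there, against 14.6 to 30.2 CPM in the other libraries. At day 3 the T cell list summed to 13.4 CPM and the myeloid list to 39.7 CPM in Mtgr1-/- mouse 3, against at most 3.03 and 6.20 CPM in the other libraries. At day 1, WT mouse 3 (26.0 CPM) and Mtgr1-/- mouse 3 (22.5 CPM) were both above the other libraries (at most 6.22 CPM) for the T cell list. WT mouse 3 was the highest library for 28 of the 54 members tested in crypts (51.9%), and for 27.3% of all genes tested. At day 1, Mtgr1-/- mouse 3 was the highest library for 24 of the 44 members tested (54.5%) and for 24.6% of all genes tested. At day 3, Mtgr1-/- mouse 2 was the highest library for 18 of the 33 members tested (54.5%) and for 31.4% of all genes tested. Epithelial markers, at 6297 CPM or more for the 7 genes in every library, far exceeded these sums.

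No member passed the threshold in crypts. By limma, 0 of 54 members were higher and 0 lower, where 1.58% of all genes tested were higher and 3.15% lower. At an unadjusted p below 0.05 there were 14 members (25.9%), 6 higher and 8 lower, beside 18.5% of all genes tested. edgeR on the recovered reads called 0 members, and DESeq2 called 4 higher and 5 lower. DESeq2 also called more of all 12980 genes tested, 586 higher and 793 lower, where limma called 205 and 409. The 4 higher in DESeq2 were Il17re, Il33, Il1rap and Il11ra1. Il17re, a chain of the IL-17C receptor, read 13.4, 20.8 and 21.9 in WT crypts and 53.7, 84.7 and 47.8 in Mtgr1-/- crypts (log2 fold change 1.66, SE 0.36, adjusted p = 0.0511). The genotypes did not overlap for this gene. Il11ra1, the IL-11 receptor alpha chain, differed by 0.80 (adjusted p = 0.0545, or 0.0421 without WT mouse 3), and Il1rap, the shared accessory chain of the IL-1 family receptors, by 0.94 (adjusted p = 0.0836, or 0.0179 without mouse 3 of both genotypes). Il33, the alarmin of barrier cells, read 609, 913 and 1036 in WT and 1042, 2762 and 1904 in Mtgr1-/- crypts (adjusted p = 0.172, or 0.0426 in the fit blocked on mouse number).

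The members DESeq2 called lower in crypts were Cxcr3, Il16, Il21r, Il12rb2 and Cxcl9. For the first 4, WT mouse 3 was far above every other library. Ccl5, the T cell chemokine RANTES, shows the pattern in full: 545, 526 and 4167 in WT crypts and 215, 80.9 and 463 in Mtgr1-/- crypts (log2 fold change -2.40, SE 0.93, adjusted p = 0.233, or 0.0333 in the fit blocked on mouse number). Without WT mouse 3 the difference of Ccl5 was -1.41 (adjusted p = 0.358). Ccr9, the gut-homing receptor for CCL25 on lymphocytes, read 53.7, 54.4 and 550 against 20.7, 23.8 and 29.5 (log2 fold change -2.22, SE 0.87, adjusted p = 0.237), and differed by -1.12 without WT mouse 3 (adjusted p = 0.0984). All 8 chemokine receptors tested had a negative difference, with a median of -1.78, beside a median of -0.0106 for the 7 interleukins and 0.0353 for the 27 interleukin receptors and binding proteins. The median over all genes tested was 0.00758. Without WT mouse 3 the difference of Cxcr6 was -1.01 (adjusted p = 0.485). The lymphocyte, myeloid and B cell marker lists had medians of -1.97, -1.59 and -1.78, with no marker past the threshold. Their part in the receptor values was not tested.

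**Figure D1:**
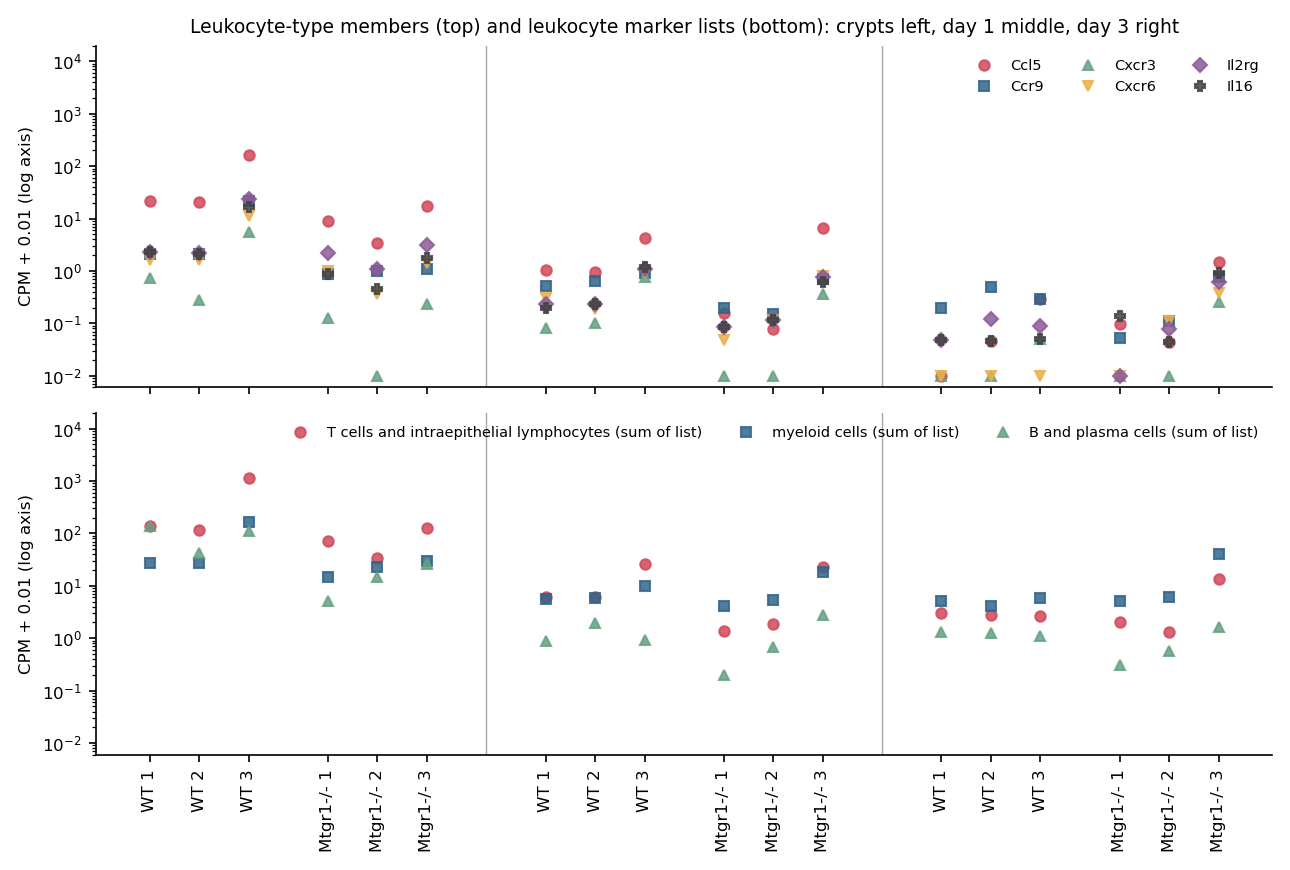
CPM plus 0.01 on a log axis for 6 leukocyte-type members (top) and the summed marker lists of T cells, myeloid cells and B cells (bottom), 1 point per library, with crypts, day 1 and day 3 from left to right. Ccl5 is at 162 CPM in WT crypt mouse 3 and at most 1.49 CPM in any day 3 library, and WT crypt mouse 3 is also the highest library for the T cell list, at 1155 CPM.

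Ccl5 and several leukocyte receptors were lower in culture than in crypts, and others were not. On CPM, reads scaled to each library's total, a scale set across tables that were normalized separately and given without a test, Ccl5 was lower at day 1 than in crypts in 6 of 6 mice, and lower again at day 3 in 6 of 6. In WT mice it went from 68.0 ± 81.0 CPM (SD, n = 3) in crypts to 2.08 ± 1.88 at day 1 and 0.106 ± 0.152 at day 3, and in Mtgr1-/- mice from 9.83 ± 6.92 to 2.29 ± 3.78 and 0.536 ± 0.824. Ccr9, Cxcr6, Il16 and Il2rg, the shared gamma chain of the IL-2 family receptors, were each lower at day 3 than in crypts in 6 of 6 mice. Ccr7, the lymph node homing receptor, was lower at day 1 than in crypts in 1 of 6 mice, and Cxcr2, a neutrophil receptor, in 2 of 6. No chemokine receptor reached the minimum at day 3. At day 3, Mtgr1-/- mouse 3 was highest for Ccl5 at 40.4 (other libraries 0 to 6.78), Ccr1 at 41.5 (0 to 1.99) and Ccr3 at 28.1 (0 to 0.968). Cxcr4 had 25 WT reads and 8 Mtgr1-/- reads at day 3, and Cxcr2 was at 0.303, 0.556 and 0.400 CPM in WT against 0.131, 0.236 and 0.289 CPM in Mtgr1-/- enteroids. At day 1, Ccl5 read 25.6, 21.9 and 101 in WT and 4.66, 1.90 and 207 in Mtgr1-/- enteroids, with a log2 difference of -1.39 (SE 1.48, adjusted p = 0.444) that became -3.29 without Mtgr1-/- mouse 3 (adjusted p = 0.0101). Ccr9 at day 1 moved likewise, from -0.90 (adjusted p = 0.245) to -1.57 (adjusted p = 0.0278). Cxcr4, a receptor of stromal CXCL12, read 7.32, 5.21 and 6.70 in WT and 1.17, 2.84 and 8.82 in Mtgr1-/- enteroids at day 1, below the minimum.

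In enteroids, members of the ligand and receptor groups differed in both directions, mostly toward higher values in Mtgr1-/-. At day 1, 21 of 44 members tested were higher in Mtgr1-/- enteroids and 4 lower, where 30.0% of all genes tested were higher and 28.9% lower. At day 3, 20 of 33 were higher and 3 lower, beside 29.9% higher and 29.1% lower over all genes. Differences between the genotypes were thus common in the whole transcriptome, and the median log2 fold change was 0.63 over the members tested and -0.00803 over all genes at day 1, and 0.76 and 0.00264 at day 3. The 21 members called at both days had the same direction, 18 higher and 3 lower. The same count over all genes is not given here. Of all genes, 0.0232% had a difference that became more positive from day 1 to day 3 and 0.00773% more negative. Agreement between the days is therefore not read as a trait of the members. Both days drew on the same mice. The day 1 calls were the same 25 with the mouse number as a block. Scaling by library totals lowered the differences by 0.32 at day 1 and 0.20 at day 3, as medians over all genes. It left 19 of 25 and 21 of 23 calls, with the same sign for all, and turned the split over all genes from 3776 higher and 3637 lower to 2200 and 5614 at day 1, and from 3826 and 3719 to 2748 and 5089 at day 3. Smaller differences below should be read against those shifts. Without mouse 3 of both genotypes, 16 of the 25 and 18 of the 23 calls stood.

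**Figure D2:**
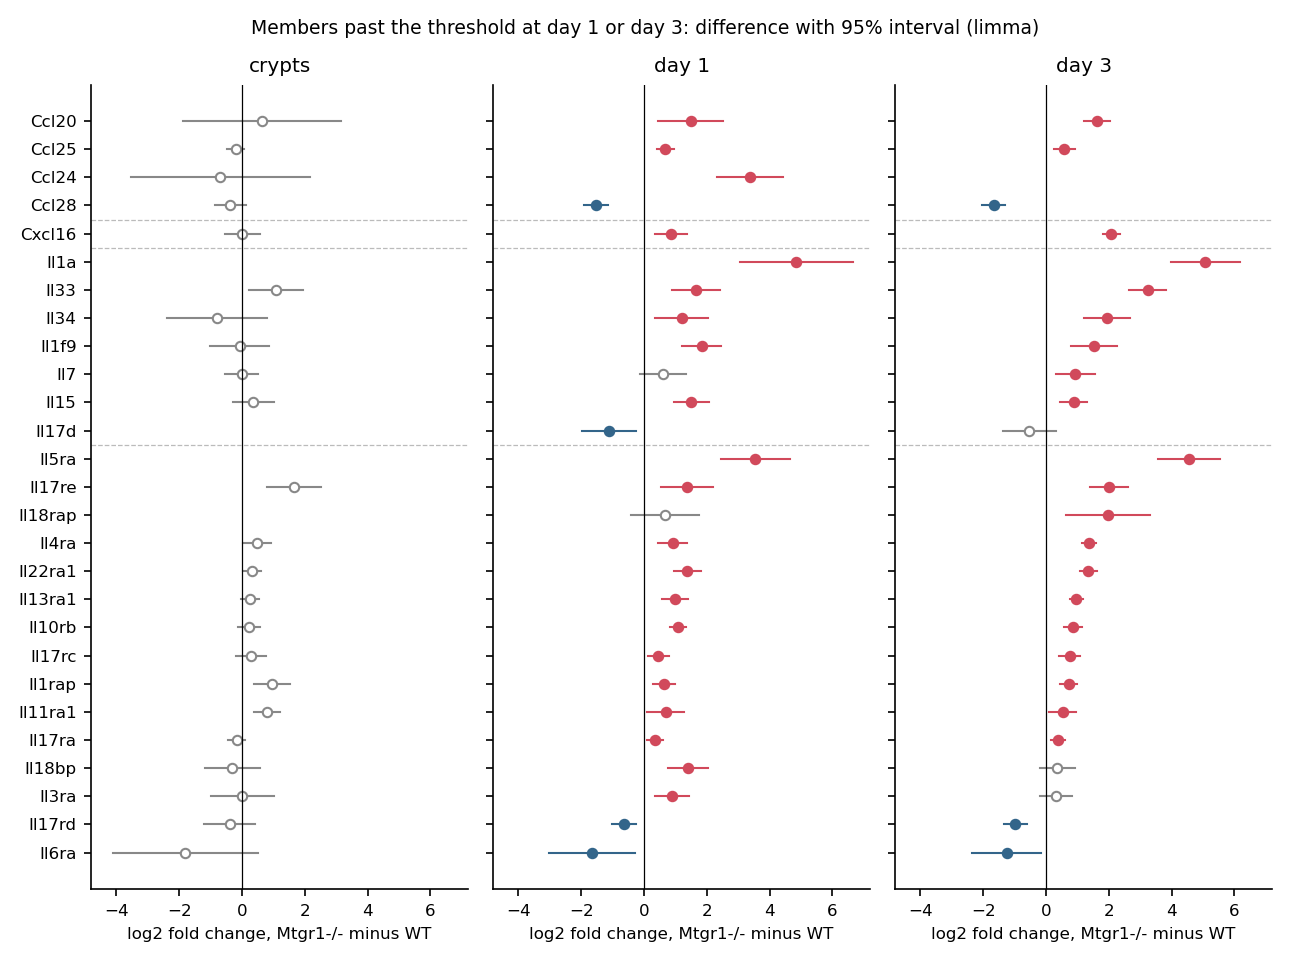
Log2 fold change, Mtgr1-/- minus WT, with its 95% interval for the 27 members past the threshold at day 1 or day 3, in crypts, day 1 and day 3 enteroids (limma on log2(normalized count + 1), n = 3 per genotype). Red marks higher, blue lower, open grey circles not past the threshold, missing points not tested, and dashed lines part CC ligands, Cxcl16, interleukins and receptors; Il1a, at 5.08, and Il5ra, at 4.56, lie farthest right at day 3.

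Markers of epithelial and other cell types differed in the same libraries. All 7 enterocyte markers were higher at both days, summing to 5780 to 7114 CPM in WT and 14318 to 21245 CPM in Mtgr1-/- enteroids at day 1. Goblet (5 of 5 listed), Paneth (6 of 6) and enteroendocrine (6 of 6) markers were lower at both days, the goblet list summing to 2245 to 2556 CPM in WT and 59.4 to 134 CPM in Mtgr1-/- enteroids at day 1. Tuft markers were lower for 5 of 9 at each day. In crypts, 5 of 5 goblet and 6 of 6 enteroendocrine markers were already lower, with medians of -4.36 and -5.10. Paneth, enterocyte and tuft markers had 0 past the threshold there, with medians of -5.34, 0.12 and 1.81. The tuft list summed to 66.1 to 89.3 CPM in WT and 114 to 387 CPM in Mtgr1-/- crypts. Of the 8 myeloid markers, 1 of 6 tested was higher at day 1 and 2 of 5 at day 3, with 0 lower. These were the macrophage gene Csf1r at both days (3.70, adjusted p = 0.00323, and 4.03, adjusted p = 0.00280) and Cd68 at day 3 (0.85, adjusted p = 0.0410). The others tested at day 1 did not pass, among them Itgam at -0.66 (adjusted p = 0.0578) and Lyz2 at 1.58 (adjusted p = 0.312). The mesenchymal gene Pdgfrb, the only 1 of its list tested, was higher at day 1 (1.53, adjusted p = 0.0286). The B cell gene Cd79b was lower at day 3 (-1.46, adjusted p = 0.00867). The part of cell composition in the values below was not tested.

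Il1a, Il33 and Il1f9, of the IL-1 family, were higher in Mtgr1-/- enteroids at both days, while Il1b had 11 WT and 10 Mtgr1-/- reads at day 1. Il1a, an alarmin released by damaged epithelium, was at 0, 0 and 5.03 in WT day 1 enteroids and at 74.6, 31.3 and 58.5 in Mtgr1-/- day 1 enteroids (log2 fold change 4.85, SE 0.78, adjusted p = 0.00147). At day 3 it was at 0, 0 and 0.968 in WT and 44.4, 45.7 and 34.8 in Mtgr1-/- (5.08, SE 0.47, adjusted p = 9.26e-05). The day 3 values rest on 1 WT read against 116 Mtgr1-/- reads, a ratio of 137 with a 95% counting interval of 24.1 to 5447; at day 1 the reads were 6 and 150, a ratio of 28.8 (12.9 to 79.7). In crypts Il1a read 0 to 20.7 and the genotypes overlapped. Il1a shares 222 exon bases with Gm14023 on the opposite strand.

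Il33 read 864, 373 and 520 in WT and 2562, 1393 and 1497 in Mtgr1-/- enteroids at day 1 (log2 fold change 1.66, SE 0.33, adjusted p = 0.00374). By day 3 it read 181, 86.4 and 152 against 1355, 1379 and 1094 (3.24, SE 0.25, adjusted p = 4.16e-05). The genotypes did not overlap at any time, crypts included. In CPM, WT Il33 went from 33.4 ± 8.19 in crypts to 24.3 ± 9.44 at day 1 and 5.84 ± 2.07 at day 3, and Mtgr1-/- Il33 from 76.6 ± 36.8 to 60.5 ± 18.9 and 46.3 ± 5.89 (SD, n = 3). Il1f9, the IL-36 gamma gene, rose to 53.6, 50.3 and 69.5 in Mtgr1-/- enteroids from 15.5, 14.6 and 15.9 in WT at day 1 (1.83, SE 0.26, adjusted p = 9.61e-04), and differed by 1.53 at day 3 (SE 0.31, adjusted p = 0.00386). The receptors for these ligands were partly below the minimum: Il1r1, the IL-1 receptor, read 0 to 14.9 in all enteroid libraries, and Il1rl1, the IL-33 receptor, was above 10 in enteroids only in Mtgr1-/- mouse 3 (45.2 at day 1 and 21.3 at day 3). Their accessory chain Il1rap was higher at both days, by 0.65 (SE 0.15, adjusted p = 0.00742) and 0.73 (SE 0.12, adjusted p = 0.00118). With library totals the day 1 value of Il1rap was 0.33 (adjusted p = 0.128).

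Il15, which sustains intraepithelial lymphocytes, read 83.2, 117 and 75.4 in WT and 266, 199 and 323 in Mtgr1-/- enteroids at day 1 (1.51, SE 0.24, adjusted p = 0.00143), and differed by 0.89 at day 3 (SE 0.18, adjusted p = 0.00409). Its presenting chain Il15ra gave 0.07 at day 1 (SE 0.18, adjusted p = 0.765) and 0.30 at day 3 (SE 0.14, adjusted p = 0.101). Il34, a ligand of the macrophage receptor CSF1R, read 11.7, 15.1 and 8.71 in WT and 56.9, 36.8 and 50.5 in Mtgr1-/- enteroids at day 3 (1.94, SE 0.31, adjusted p = 0.00128). Its day 1 difference was 1.20 (adjusted p = 0.0234). That call was lost on leaving out WT mouse 1 or 2, or Mtgr1-/- mouse 1 or 3, and with library totals. Il7, a growth factor for lymphocytes, passed at day 3 alone, with 27.8, 20.5 and 19.4 against 38.7, 55.7 and 38.2 (0.94, SE 0.27, adjusted p = 0.0188), and not without WT mouse 2, WT mouse 3 or Mtgr1-/- mouse 2. Il17d was lower at day 1, with 25.6, 17.7 and 24.3 in WT and 8.16, 8.53 and 13.2 in Mtgr1-/- (-1.11, SE 0.37, adjusted p = 0.0314). Its call rested on WT mice 1 and 3 and on Mtgr1-/- mice 1 and 2, and at day 3 the difference was -0.53 (adjusted p = 0.239). Il25, the tuft cell cytokine, was listed in crypts alone, at 0 to 4.07.

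**Figure D3:**
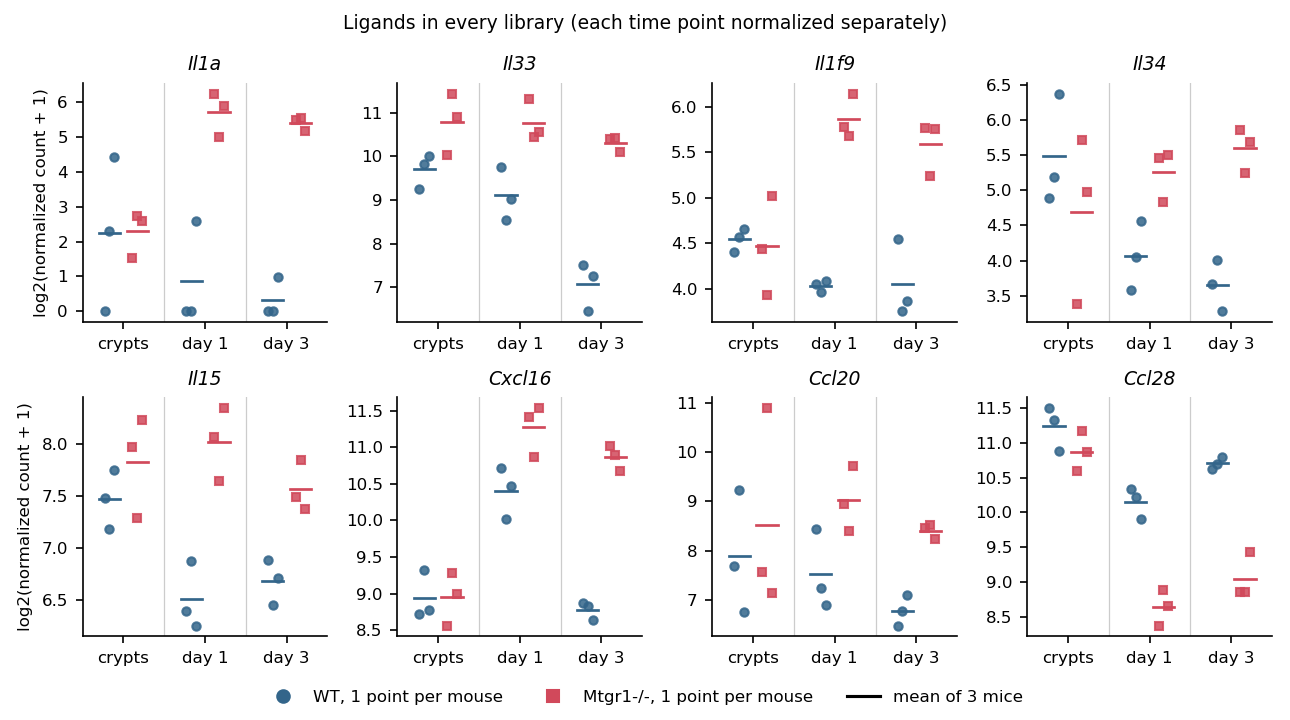
Log2(normalized count + 1) of 8 ligand genes in every library, 1 point per mouse and a bar at the mean of 3, with WT in blue circles and Mtgr1-/- in red squares. The genotypes overlap in crypts for all but Il33, and separate at day 3 for all 8, each of which was past the threshold there. The share of all genes that separate is not given. Levels are to be compared within a time point, as each was normalized separately.

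Chemokine ligands split by gene. Cxcl16, a membrane-bound chemokine for CXCR6-bearing lymphocytes, read 1682, 1033 and 1416 in WT and 2725, 1875 and 2975 in Mtgr1-/- enteroids at day 1 (0.88, SE 0.22, adjusted p = 0.0102). At day 3 it read 468, 455 and 396 against 2076, 1903 and 1639 (2.09, SE 0.11, adjusted p = 1.05e-05). In CPM, Cxcl16 was higher at day 1 than in crypts in 6 of 6 mice. In WT the level was 57.5 ± 11.4 CPM at day 1 and 18.4 ± 1.80 CPM at day 3, and in Mtgr1-/- 84.0 ± 13.6 and 68.2 ± 10.2 CPM (SD, n = 3). Without mouse 3 of both genotypes the day 1 adjusted p of Cxcl16 was 0.0753. Cxcl16 shares 552 exon bases with Zmynd15 on the opposite strand; the libraries were stranded, and the strand setting of the counting is not given in the sources used here. Ccl20, the ligand of CCR6, differed by 1.63 at day 3, with 87.8, 108 and 136 in WT and 349, 366 and 302 in Mtgr1-/- (SE 0.18, adjusted p = 2.10e-04). At day 1 the genotypes overlapped (1.50, adjusted p = 0.0215), and the call was lost without WT mouse 2, WT mouse 3, Mtgr1-/- mouse 1 or Mtgr1-/- mouse 3. Ccl25, which recruits CCR9-bearing cells to the small intestine and had the highest level of all members per kilobase of exon in enteroids of both genotypes, read 8835, 7480 and 7908 against 14142, 11195 and 13723 at day 1 (0.69, SE 0.12, adjusted p = 0.00209) and differed by 0.58 at day 3 (adjusted p = 0.0102, or 0.0687 without mouse 3 of both genotypes). Ccl24, an eosinophil chemokine, read 2.74, 2.08 and 2.51 against 23.3, 31.3 and 56.2 at day 1 (3.37, SE 0.46, adjusted p = 7.52e-04).

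Ccl28, the mucosal chemokine that draws IgA plasma cells through CCR10, fell in the opposite direction to these. It read 1290, 1187 and 959 in WT and 330, 472 and 403 in Mtgr1-/- enteroids at day 1 (-1.51, SE 0.16, adjusted p = 3.40e-04), and 1580, 1650 and 1774 against 461, 459 and 688 at day 3 (-1.66, SE 0.16, adjusted p = 1.04e-04). In crypts it read 2895, 2579 and 1892 against 1538, 2310 and 1860 (adjusted p = 0.396). Of the neutrophil chemokines, Cxcl1 read 0, 2.67 and 0.968 in WT and 18.2, 7.95 and 8.98 in Mtgr1-/- enteroids at day 3, Cxcl2 at most 10.2 and Cxcl5 at most 4.49, all below the minimum. Cxcl10, induced by interferons, gave 0.72 at day 1 (SE 0.44, adjusted p = 0.193).

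Il5ra, the IL-5 receptor alpha chain known from eosinophils and B cells, read 14.6, 5.21 and 23.5 in WT and 135, 189 and 147 in Mtgr1-/- enteroids at day 1 (3.55, SE 0.48, adjusted p = 7.48e-04). At day 3 it read 17.03, 8.02 and 19.4 against 265, 646 and 253 (4.56, SE 0.43, adjusted p = 1.03e-04). It was highest in Mtgr1-/- mouse 2 at both days, and it went from 0.0525 ± 0.0598 CPM in Mtgr1-/- crypts to 13.8 ± 7.05 CPM at day 3 (SD, n = 3). Il17re was higher at both days, with 32.3, 28.5 and 30.0 against 180, 94.4 and 111 at day 3 (2.00, SE 0.26, adjusted p = 4.72e-04). At day 1 it differed by 1.37 (adjusted p = 0.0126). Il18rap, the accessory chain of the IL-18 receptor, differed by 1.98 at day 3 (SE 0.58, adjusted p = 0.0183), with WT values of 31.4, 4.45 and 15.5 and Mtgr1-/- values of 52.3, 59.7 and 53.9 (adjusted p = 0.0727 without mouse 3 of both genotypes), and its partner Il18r1 gave 0.96 (adjusted p = 0.0501). Il3ra, the IL-3 receptor alpha chain, was higher at day 1 alone (0.89, SE 0.23, adjusted p = 0.0123, or 0.0841 with library totals). Il11ra1 was higher at both days, by 0.69 (adjusted p = 0.0456) and 0.53 (adjusted p = 0.0390), and past the threshold at neither day with library totals, with edgeR or without mouse 3 of both genotypes. Il18bp, the soluble IL-18 antagonist, was higher at day 1 (1.41, SE 0.27, adjusted p = 0.00327) and gave 0.37 at day 3 (adjusted p = 0.211).

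Both chains of the IL-22 receptor were higher. Il22ra1 read 1236, 879 and 986 in WT and 2786, 2084 and 3260 in Mtgr1-/- enteroids at day 1 (1.38, SE 0.19, adjusted p = 7.35e-04), and 786, 600 and 753 against 1749, 1953 and 1726 at day 3 (1.35, SE 0.12, adjusted p = 6.70e-05). Il10rb, the chain IL-22 shares with IL-10 and type III interferons, read 1466, 1360 and 1457 against 3131, 2576 and 3335 at day 1 (1.07, SE 0.11, adjusted p = 2.84e-04) and differed by 0.85 at day 3 (SE 0.12, adjusted p = 7.43e-04). Il10rb shares 569 exon bases with Gm21970 on the same strand. Both chains of the type II IL-4 and IL-13 receptor were higher as well. Il4ra read 568, 582 and 527 in WT and 1403, 1606 and 1354 in Mtgr1-/- enteroids at day 3 (1.37, SE 0.10, adjusted p = 2.58e-05, or 0.91 at day 1, adjusted p = 0.00544), and Il13ra1 read 1506, 1380 and 1386 against 2542, 3092 and 2770 (0.97, SE 0.09, adjusted p = 1.02e-04, or 0.98 at day 1, adjusted p = 0.00231). None of these 4 chains overlapped between genotypes at either day. The share of all genes that did not overlap is not given here, but 30.0% were called higher at day 1 and 29.9% at day 3.

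In the IL-17 receptor family the chains went different ways. Il17ra, the common chain, gave 0.34 in day 1 enteroids (adjusted p = 0.0297) and 0.38 in day 3 enteroids (adjusted p = 0.0101), and 0.02 and 0.18 with library totals (adjusted p = 0.866 and 0.185). Il17rc, the partner for IL-17A and IL-17F, differed by 0.46 (adjusted p = 0.0270, or 0.14 with library totals, adjusted p = 0.494) and 0.76 (adjusted p = 0.00258). Without Mtgr1-/- mouse 3 the day 1 calls of Il17ra (adjusted p = 0.0795) and Il17rc (adjusted p = 0.0790) were lost. Il17rb, the IL-25 receptor of tuft cells and innate lymphocytes, gave 0.50 (adjusted p = 0.131) and 0.49 (adjusted p = 0.144). Il17rd, also known as Sef, an inhibitor of FGF signalling, was lower, with 212, 170 and 168 in WT and 122, 105 and 121 in Mtgr1-/- enteroids at day 1 (-0.65, SE 0.16, adjusted p = 0.0110, or 0.0501 without WT mouse 1) and 402, 297 and 334 against 199, 150 and 173 at day 3 (-0.98, SE 0.16, adjusted p = 0.00140). Il6ra, the IL-6 receptor, was also lower, at 13.7, 9.37 and 32.7 against 2.33, 6.64 and 5.51 at day 1 (-1.65, adjusted p = 0.0425). The day 3 difference was -1.25 (adjusted p = 0.0494, or 0.0847 in the fit blocked on mouse number). The day 1 call of Il6ra was lost without WT mouse 1, Mtgr1-/- mouse 1 or Mtgr1-/- mouse 3, and that of day 3 without WT mouse 1 or 3 or Mtgr1-/- mouse 1 or 3. Its signalling partner Il6st, the gp130 chain, read 952, 886 and 758 against 842, 786 and 752 at day 1 (-0.12, 95% interval -0.38 to 0.14, adjusted p = 0.380), although library totals gave -0.44 (adjusted p = 0.0149). At day 3 it gave -0.09 (95% interval -0.33 to 0.15, adjusted p = 0.466).

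**Figure D4:**
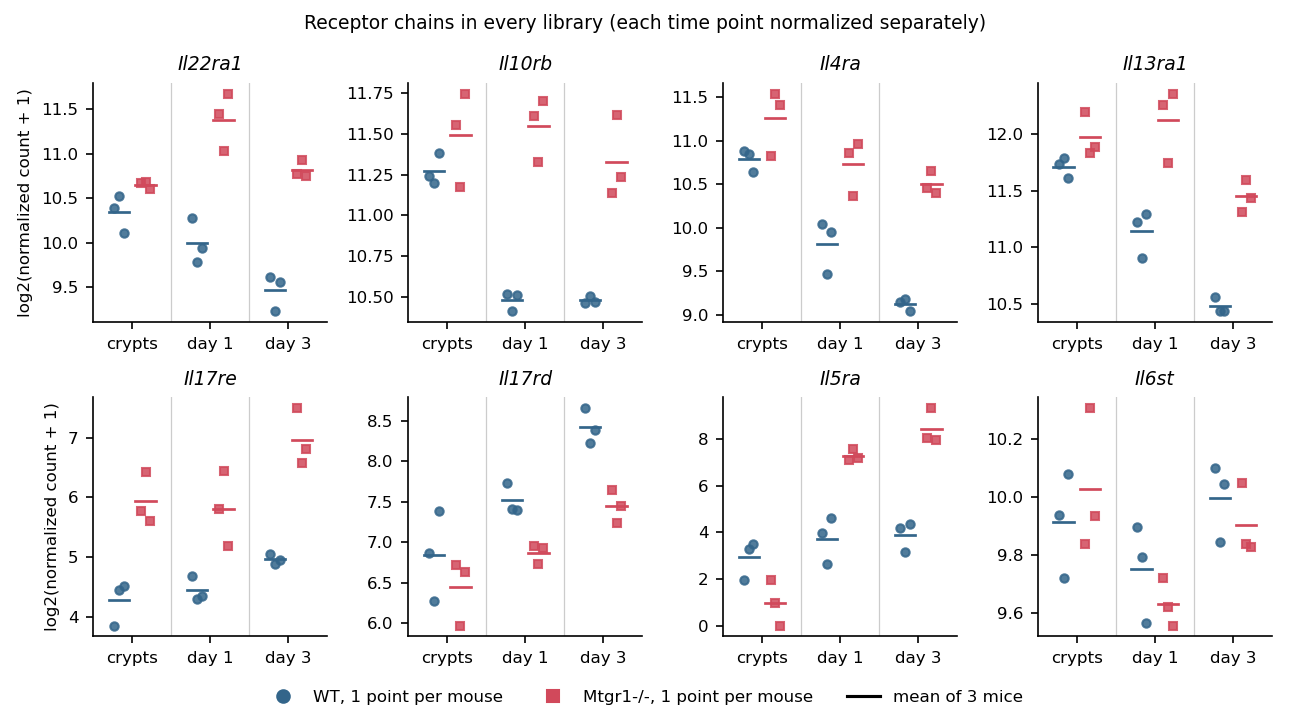
Log2(normalized count + 1) of 8 receptor genes in every library, 1 point per mouse and a bar at the mean of 3, with WT in blue circles and Mtgr1-/- in red squares, each time point normalized separately. Il22ra1, Il10rb, Il4ra, Il13ra1, Il17re and Il5ra lie higher and Il17rd lower in Mtgr1-/- enteroids at both days, while the genotypes overlap for Il6st at every time.

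The genotype difference of many members changed on plating. With limma fitted to the 18 libraries together, each mouse entering as a random effect, the difference became more positive from crypts to day 1 for 15 of 49 members and more negative for 1, where 19.4% and 20.0% of all genes did. Il5ra changed most, by 5.51 (SE 0.84, adjusted p = 7.43e-04), from 2.87, 8.91 and 10.4 in WT and 2.83, 0.951 and 0 in Mtgr1-/- crypts. Ccl28 was the member that became more negative (-1.15, SE 0.28, adjusted p = 0.00554). Il22ra1 (1.07, adjusted p = 0.00306), Il10rb (0.85, adjusted p = 0.00452), Ccl25 (0.89, adjusted p = 0.00341) and Il1f9 (1.91, adjusted p = 0.00387) were among the others. Without Mtgr1-/- mouse 3 at day 1 there were 10 such members in all. From day 1 to day 3 the difference changed for 0 members by limma, beside 0.0232% of genes that became more positive and 0.00773% more negative. At an unadjusted p below 0.05 there were 3 members; Cxcl16 was closest (adjusted p = 0.167), and no other tool was run for this change.

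Genes that carry the signal onward are counted here beside all genes tested, of which 30.0% rose and 28.9% fell on day 1, with 29.9% up and 29.1% down on day 3. Of 11 JAK and STAT genes, 6 of 10 tested were higher at day 1 and 7 of 10 at day 3, and 0 lower. Stat2 differed by 1.61 and 1.14, Stat3 by 0.89 and 1.06 and Jak2 by 1.21 and 0.96. Of 15 NF-kB genes, day 1 had 7 higher and 0 lower and day 3 had 7 higher and 1 lower, when Nfkb1 fell by 0.31 and Tnfaip3, a feedback inhibitor, differed by 1.02. Fits with library totals are not given for these lists. In CPM the NF-kB list summed to 681 to 712 in WT and 687 to 741 in Mtgr1-/- enteroids at day 1. At day 3 it summed to 659 to 663 and 709 to 733 CPM. The JAK and STAT list summed to 659 to 675 CPM in WT and 829 to 1016 CPM in Mtgr1-/- enteroids at day 1. Of 14 IL-1 and IL-17 adaptors, 4 were higher and 2 lower in day 1 enteroids, and 5 higher and 4 lower in day 3 enteroids. The adaptor list summed to 663 to 674 CPM in WT and 600 to 642 CPM in Mtgr1-/- enteroids at day 1. The kinase Irak2 differed by 1.28 and 1.14, and Irak3, an inhibitor of the pathway, by -2.17 and -1.39. In crypts Irak3 read 43.6 ± 12.5 in WT and 12.2 ± 3.50 in Mtgr1-/- mice (SD, n = 3), a difference of -1.76 (adjusted p = 0.0582). Of 8 CISH and SOCS feedback genes, 2 were higher and 3 lower at day 1, and 2 higher and 0 lower at day 3. Among 9 other cytokines and shared receptors, 3 of 4 tested were higher at day 1 and 4 of 4 at day 3. Clcf1, a gp130 ligand, read 23.5 ± 5.34 in WT and 278 ± 93.5 in Mtgr1-/- enteroids at day 3 (SD, n = 3). Of 9 chemokine genes outside the rule, the membrane chemokine Cx3cl1 was higher at both days (1.13 and 1.27). No gene of these lists passed the threshold in crypts.

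The promoters of 6 members, 4 that were higher and 2 that were lower at both days, are printed from 250 bases before to 50 after the RefSeq start, 5′ to 3′ on the strand of the gene (GRCm38.p6), so that the starts of genes moving in opposite directions can be read side by side. Capitals mark matches on either strand to 4 motifs, and where matches overlap the capitals join. The AP-1 motif was searched as TGANTCA, and the STAT motif as TTCNNNGAA. The box at which many promoters bind the basal machinery was searched as TATAAA, and the motif of GATA factors as AGATAA. Il1a lies at chr2:129309923-129310222 on the minus strand, Il5ra at chr6:106748988-106749287 on the minus strand, and on the plus strand lie Il33 at chr19:29924863-29925162 for its upstream start and chr19:29945540-29945839 for its downstream start, Il22ra1 at chr4:135727909-135728208, Ccl28 at chr13:119623569-119623868 and Il17rd at chr14:27038751-27039050.
Il1a: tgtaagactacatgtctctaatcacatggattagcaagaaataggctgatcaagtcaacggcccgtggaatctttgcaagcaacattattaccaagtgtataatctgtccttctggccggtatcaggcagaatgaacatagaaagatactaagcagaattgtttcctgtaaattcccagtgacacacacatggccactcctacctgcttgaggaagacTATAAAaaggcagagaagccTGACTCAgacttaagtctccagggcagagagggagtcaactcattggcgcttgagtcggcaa
Il5ra: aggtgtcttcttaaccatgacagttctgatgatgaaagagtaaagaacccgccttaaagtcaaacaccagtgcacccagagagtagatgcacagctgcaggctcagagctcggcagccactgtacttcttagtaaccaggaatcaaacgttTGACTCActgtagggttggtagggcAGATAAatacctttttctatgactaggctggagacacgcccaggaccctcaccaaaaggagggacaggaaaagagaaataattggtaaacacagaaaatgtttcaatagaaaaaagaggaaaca
Il33 upstream start: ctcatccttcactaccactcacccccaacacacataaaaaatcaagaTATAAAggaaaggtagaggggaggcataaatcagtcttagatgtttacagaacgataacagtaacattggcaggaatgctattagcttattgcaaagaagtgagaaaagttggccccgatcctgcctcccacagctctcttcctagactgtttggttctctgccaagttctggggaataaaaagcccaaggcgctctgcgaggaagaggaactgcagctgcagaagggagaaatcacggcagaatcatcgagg
Il33 downstream start: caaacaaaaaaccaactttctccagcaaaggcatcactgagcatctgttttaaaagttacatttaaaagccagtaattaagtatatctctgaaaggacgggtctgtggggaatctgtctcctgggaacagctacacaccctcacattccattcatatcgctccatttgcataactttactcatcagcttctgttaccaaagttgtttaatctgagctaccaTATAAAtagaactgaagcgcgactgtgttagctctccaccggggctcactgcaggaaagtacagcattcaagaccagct
Il22ra1: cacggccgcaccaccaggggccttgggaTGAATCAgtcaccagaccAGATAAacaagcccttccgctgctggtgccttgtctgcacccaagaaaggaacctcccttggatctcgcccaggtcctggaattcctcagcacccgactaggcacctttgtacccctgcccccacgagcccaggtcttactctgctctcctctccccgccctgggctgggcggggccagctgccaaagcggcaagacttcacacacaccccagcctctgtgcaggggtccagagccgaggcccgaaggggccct
Ccl28: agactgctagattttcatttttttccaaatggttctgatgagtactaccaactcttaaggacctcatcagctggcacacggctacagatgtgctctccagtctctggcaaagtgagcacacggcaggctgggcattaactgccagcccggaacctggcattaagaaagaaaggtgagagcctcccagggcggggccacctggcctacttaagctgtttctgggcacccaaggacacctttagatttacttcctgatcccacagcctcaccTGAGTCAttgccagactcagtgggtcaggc
Il17rd: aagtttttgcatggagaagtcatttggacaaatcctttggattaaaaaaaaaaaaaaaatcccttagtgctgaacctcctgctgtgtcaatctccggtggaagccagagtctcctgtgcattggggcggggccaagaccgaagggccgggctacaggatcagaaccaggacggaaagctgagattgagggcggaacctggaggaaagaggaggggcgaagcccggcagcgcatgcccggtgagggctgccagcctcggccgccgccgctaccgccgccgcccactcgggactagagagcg

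Gene totals do not tell which Il33 start was used. Of the 23 members higher at day 1 or day 3, 16 had a promoter in the table, and all 4 that were lower did. AP-1 letters were in 3 of the 16 (Il1a, Il5ra and Il22ra1), in 1 of the 4 (Ccl28) and in 7.81% of all 32851 promoters. TATA letters were in 3 of 16 (Il1a, Il33 and Ccl25), 0 of 4 and 13.6% of all, GATA letters in 3, 1 and 11.2%, and STAT letters in 1, 1 and 8.30%. The E-box CANNTG, left in lower case, was in 14 of 16, 4 of 4 and 72.3% of all. A member was counted once if any of its promoters matched, whereas the share of all was taken over single promoters, so the units differ. Over all 79 members with a promoter, AP-1 letters were in 16, TATA letters in 14 and GATA letters in 15. STAT letters were in 12 of the 79, NF-kB letters in 6 and the E-box in 66. These are matches of letters in a short window, not sites.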

How the data were processed

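Per the labels and the study's methods, the authors trimmed single-end reads of stranded poly-A libraries with fastp 0.20.0, ran Salmon 1.3.0 on GENCODE mouse transcripts, added transcripts up to genes and divided by DESeq2 1.26.0 size factors, 1 table per time point. The deposited values used here are these normalized counts, a signal that is not whole numbers. The deposited tables also hold the authors' own mean, log2 fold change, test score and p-value columns, which were not used. Dividing by the step of each library gave back whole reads (tolerance 0.01) for all values in 18 libraries; in WT crypt mouse 2 and Mtgr1-/- day 3 mouse 2 the step lay too near 1 to check this.

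Genotypes were compared in R 4.3.3 with limma 3.58.1 on log2(normalized count + 1), for genes with a mean of at least 10. edgeR 4.0.16 and DESeq2 1.42.0 on the recovered reads were alternatives, as were other pseudocounts, filters and scaling, a replicate block, and leaving out libraries. The fits were tested on simulated data. With 3 libraries against 3, an exact permutation test cannot go below p = 0.1, so none is given. Mouse numbers come from the labels. Deviations of same-numbered WT and Mtgr1-/- mice correlated at 0.116, 0.231 and 0.216 at day 1, at 0.0764, 0.274 and 0.346 in crypts, and at -0.00666, -0.00226 and -0.0156 at day 3. No label pairs a WT with an Mtgr1-/- mouse, and the same mice gave all 3 times, so these values do not settle a pairing. The fit blocked on mouse number is an alternative only. Counting intervals and limits cover counting error only.

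Members, gene lists and marker lists were chosen with earlier results of these data known. Genes described with values were, per comparison, at most 8 that rose and 8 that fell, taken by size among those past the threshold, and a list of epithelial and leukocyte members; others named are given for their role or for values seen. Il20ra, on that list, was in no table. Promoters come from RefSeq (GRCm38.p6), which held 79 of the 105 members.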

Additional observations from a re-analysis of the deposited data

Results flagged for a closer look

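A test of the change itself from crypts to day 1 (limma, adjusted p below 0.05) passed for 15 members as more positive and 1 as more negative. Over all genes tested the shares were 19.4% and 20.0%. On the log2 scale the difference, Mtgr1-/- minus WT, became more positive by 5.51 for Il5ra, 4.81 for Il1a, 4.06 for Ccl24, 2.40 for Cxcl9, 2.01 for Il18r1, 2.00 for Il34, 1.91 for Il1f9, 1.72 for Il18bp, 1.15 for Il15, 1.07 for Il22ra1, 0.89 for Ccl25, 0.87 for Cxcl16, 0.85 for Il10rb, 0.72 for Il13ra1 and 0.51 for Il17ra. For Ccl28 it changed by -1.15. Il1a was at 0 to 0.803 CPM in the WT libraries and 1.15 to 2.40 CPM in Mtgr1-/- enteroids, so it can pass the minimum through the latter. In crypts Ccl24 was at 2.45 CPM in WT mouse 3, against 0.153 and 0.0778 CPM in the other WT mice and 0.118 to 0.338 CPM in Mtgr1-/- mice. The changes of Cxcl9 and Il18r1 came with lower values in Mtgr1-/- than in WT crypts, where WT mouse 3 was highest for both, and neither gene passed the threshold at day 1 (Cxcl9 was below the minimum). Their calls, and those of Cxcl16 and Il34, were lost on leaving out any of several single libraries: without Mtgr1-/- day 1 mouse 3 the adjusted p was 0.109 for Cxcl9, 0.108 for Il18r1, 0.105 for Cxcl16 and 0.0928 for Il34. The part of that library in these values was not tested further.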

How the results depend on the processing

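In crypts the count of 0 members past the threshold became 1 with no filter on low values, 1 with at least 10 in every library of one genotype, 1 without mouse 3 of both genotypes (chosen after seeing the data), 3 with the replicate block and 9 with DESeq2, and ranged from 0 to 1 when single libraries were left out. The count of members whose difference changed from crypts to day 1 ranged from 10 to 17 when single libraries were left out, with 10 without Mtgr1-/- day 1 mouse 3. The cause was not tested. At day 1 and day 3 the count of members called stayed within 1.5 times its value under every alternative run, and no named member reversed while past the threshold. With the mouse number as a replicate block there were 25 calls at day 1, 22 at day 3, and 14 and 0 for the changes of the difference. No label gives the pairing that this block assumes. Of the calls at day 1, 24 of 25 stood in edgeR and 24 in DESeq2, and at day 3, 22 of 23 stood in each. Members with few reads, such as Il1a in WT enteroids, are limited by depth, and 44 members were never tested.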

Other observations

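Several members below the minimum had reads in 1 genotype only, or nearly so. In the WT direction, Cxcl13, a B cell chemokine, had 8 WT reads at day 3, from all 3 mice, and 0 Mtgr1-/- reads, at least 2.26-fold lower. Cxcl12, the stromal ligand of CXCR4, had 0 WT reads and 20 Mtgr1-/- reads at day 1, at least 7.68-fold higher against a floor of 3 reads over the group, and 0 and 14 reads at day 3 (at least 5.50-fold). Its Mtgr1-/- reads came from all 3 mice at both days. Il1f6, the IL-36 alpha gene, had 0 and 12 reads at day 3 (at least 4.72-fold), and Il1f8, the IL-36 beta gene, 0 and 13 at day 1 (at least 4.99-fold), again from all 3 Mtgr1-/- mice. Ccl22, a dendritic cell and macrophage chemokine, had 0 and 23 reads at day 3, of which 20 were in Mtgr1-/- mouse 3, the library with the highest myeloid marker sum. Ccl17 had 2 WT and 26 Mtgr1-/- reads there (ratio 15.3, 95% counting interval 3.84 to 133), 25 of them in that mouse.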
